A study of Mus musculus with 39 samples.

Results

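The nuclear receptors that sense lipids and foreign chemicals were followed across all 10 groups of a mouse liver series: the fatty acid receptors Ppara, Ppard and Pparg, the xenobiotic receptors Nr1i3 and Nr1i2, the oxysterol receptor Nr1h3, the bile acid receptor Nr1h4, the repressor Nr0b2, the shared partner Rxra and the hepatocyte factor Hnf4a. Members were taken by gene symbol, as the probes whose only symbol in the probe annotation is one of these 10. Signal values played no part in that rule, but the 10 and the lists of target genes used below were chosen with earlier results of these data known. Of the 10, 8 had a probe, 1 each, among 13840 genes with such a probe, and Rxra and Hnf4a are not analysed here. The samples are livers of male mice, adult and on a 129SV background, that were either PPARα-null or wild type and were gavaged daily for 7 days. In each genotype PFOA (perfluorooctanoic acid, as its ammonium salt) was given at 0, 1 or 3 mg/kg in deionized water, and pirinixic acid, a synthetic PPARα agonist written as its Wyeth code in the labels and plots, at 50 mg/kg in 0.5% methylcellulose against that vehicle. There are 39 arrays: 9 groups have 4, and wild type on methylcellulose has 3. The design text gives 4 animals per group. The comparisons ask which responses to PFOA need PPARα, and how PFOA compares with pirinixic acid. The labels name no tissue restriction of the null allele and do not describe how it was made.

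Nuclear receptors are transcription factors that bind small fat-soluble molecules and then change which coregulators they recruit to DNA. In liver, PPARα switches on fatty acid oxidation, CAR (encoded by Nr1i3) and PXR (Nr1i2) switch on the enzymes that clear drugs, LXRα (Nr1h3) responds to oxysterols with cholesterol and fat synthesis genes, and FXR (Nr1h4) responds to bile acids in part by inducing SHP (Nr0b2), which has no DNA-binding domain and represses other receptors. PPARγ and PPARδ are minor in normal liver, and PPARγ is known for driving fat storage. Most of these receptors bind DNA as a pair with RXRα. Ligands change the activity of a receptor that is already present, so the level of its mRNA and the level of its target genes are separate measurements, and both are given here.

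Each array gives a log2 signal, so that a difference of 1 is a 2-fold difference in signal. A signal can be compared between arrays for one probe, and not between probes of different genes. Of 33012 probes, 25295 had a value on all 39 arrays and were tested together with limma, a linear model whose variances are moderated across probes; a call is a Benjamini-Hochberg adjusted p under 0.05 over those probes, errors of differences are standard errors (SE), and errors of means are SD. 7 of the 8 measured receptors were among them. Ppard lacked 2 values, 1 in null mice on PFOA 1 mg/kg and 1 in null mice on water, and was tested in a fit of 32908 probes that allows missing values. Replicate 3 of the arrays labelled wild type with PFOA 1 mg/kg goes against its label. The PPARα target Ehhadh was at 15.94 on it and at 20.01 to 20.31 on the other arrays of its group. It was at 15.74 to 16.38 on wild-type water arrays and at 16.01 to 16.36 on null arrays with PFOA 1 mg/kg. Ehhadh therefore cannot tell a wrong treatment label from a wrong genotype label. Cox6b2 was at 9.06 on the doubted array, within the 6.91 to 10.05 of the 20 null arrays and below the 13.29 to 17.56 of the other 18 wild-type arrays. Some receptor results that use this array are therefore given with and without it. All other results, the target lists included, are given with it. Because all groups were fitted together, it also enters the variance of every comparison. 143 probes split the arrays into sets of 16 and 23 that the labels do not record, and the 4 arrays of wild type on pirinixic acid are all in the larger set. Hepatocyte markers (6 of 7 listed) averaged 20.22 to 20.65 over the groups. In bulk liver, fewer cells of a type and less RNA per cell cannot be told apart.

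The receptor probes ranged from bright to dim. Nr1i3 and Nr1h3, both averaging 16.56 over all arrays, Nr1h4 at 16.24 and Ppara at 16.08 were each brighter than at least 95.6% of probes. Nr0b2 averaged 14.68, Pparg 12.09 and Nr1i2 10.97, all above the array median of 9.14. Ppard averaged 7.70, dimmer than the median and at the level of the lowest 22.4% of probes. These places in the distribution describe the probes and give no order of mRNA amounts.

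**Figure D1:**
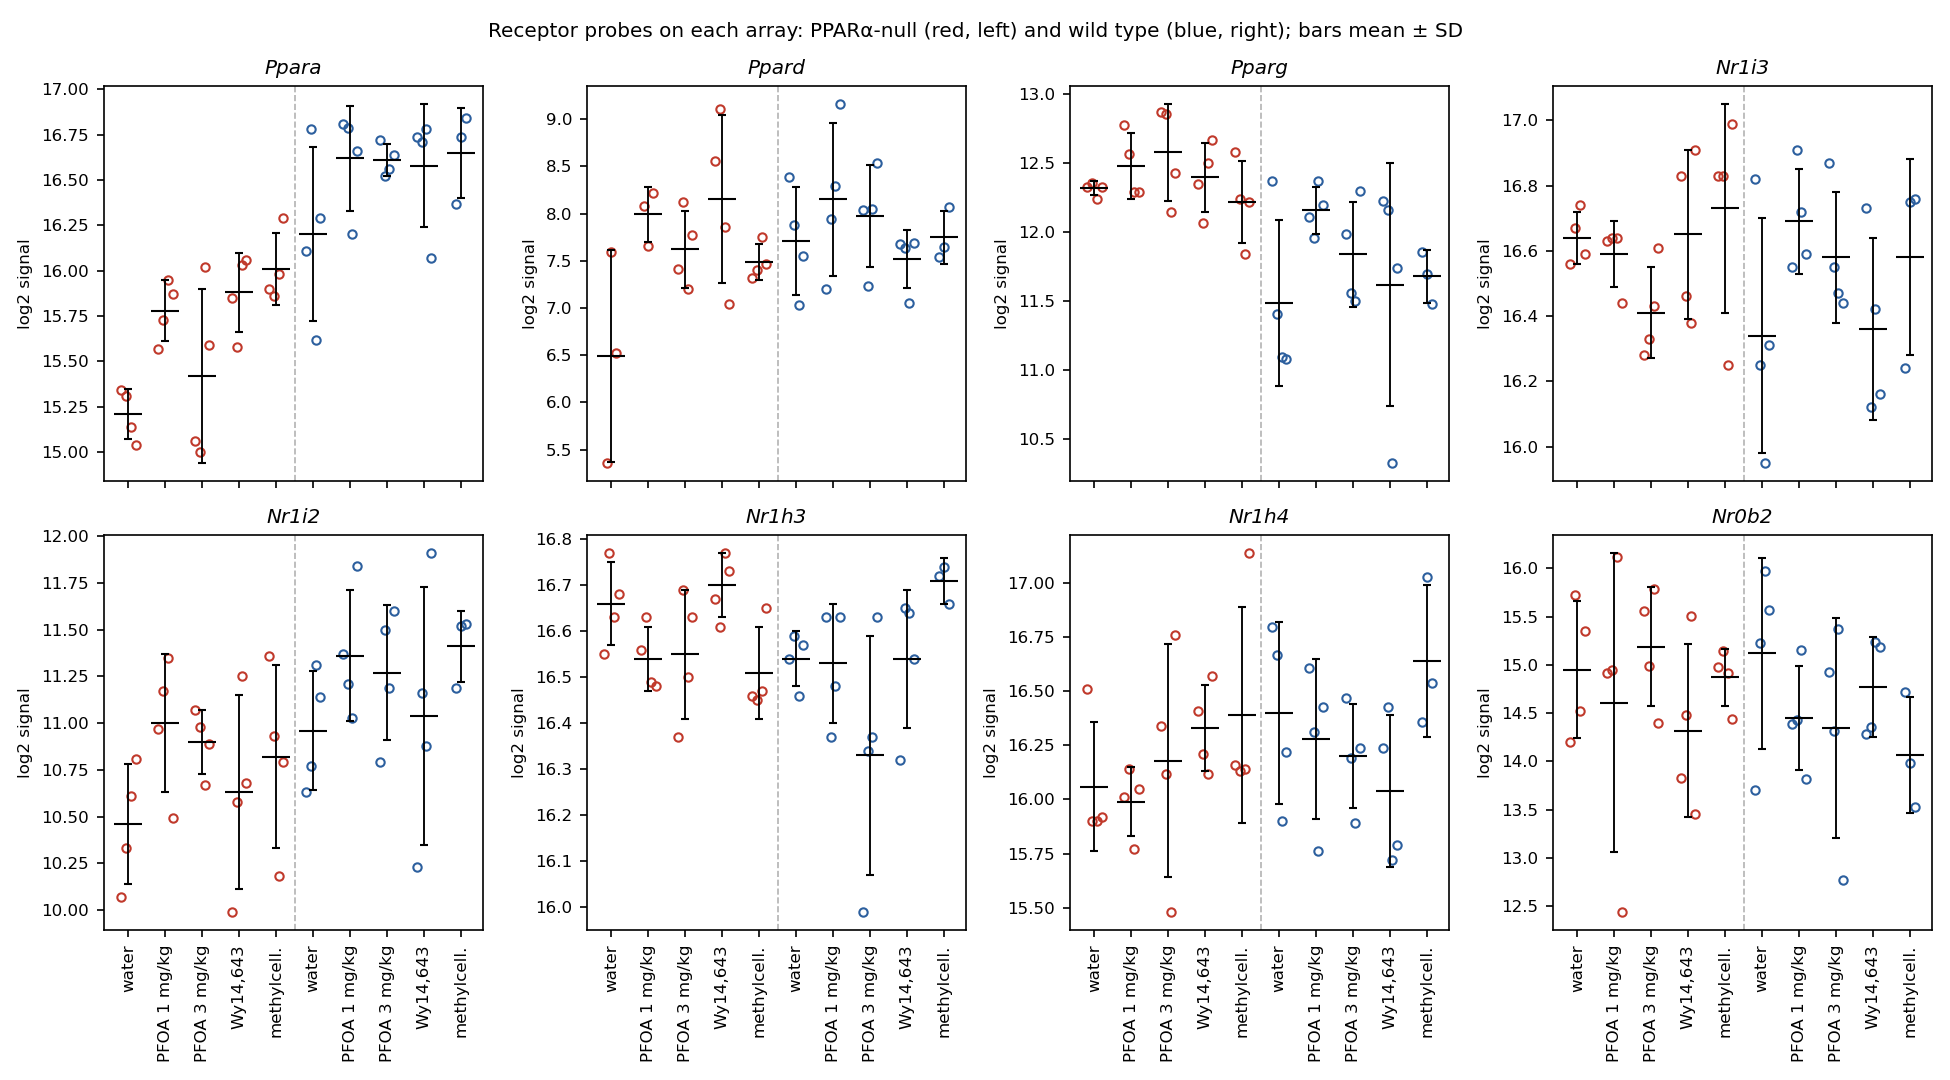
Log2 signal (y axis) of the 8 receptor probes on every array by group (x axis; PPARα-null left in red, wild type right in blue; circles are arrays, bars mean ± SD, n = 3 or 4 per group). In the Ppara panel every null array of a treatment lies below every wild-type array of that treatment, and the Nr0b2 panel spans 12.44 to 16.12.

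The 250 bases before the first listed start (RefSeq, GRCm38.p6) are shown for the 3 receptors whose mean over treatments differed between genotypes (Ppara, Pparg and Nr1i2) and for Nr0b2, whose arrays differed most within groups. Both strands were searched for the nuclear receptor half-site AGGTCA, the monomer half-site TCAAGG and the TATA letters TATAAA, which 14.0%, 12.5% and 12.4% of 32851 mouse promoter windows of this length hold, and matches are in capitals. The Ppara window is chr15:85735526-85735775 on the plus strand with 76.4% GC, that of Pparg chr6:115360894-115361143 plus with 82.4% GC, that of Nr1i2 chr16:38294825-38295074 minus with 44.0% GC, and that of Nr0b2 chr4:133553126-133553375 plus with 50.0% GC.
Ppara: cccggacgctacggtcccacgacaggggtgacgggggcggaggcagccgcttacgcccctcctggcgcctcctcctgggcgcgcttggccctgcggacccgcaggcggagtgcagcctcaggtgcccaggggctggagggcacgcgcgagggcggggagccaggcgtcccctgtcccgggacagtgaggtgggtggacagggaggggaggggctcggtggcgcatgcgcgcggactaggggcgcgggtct
Pparg: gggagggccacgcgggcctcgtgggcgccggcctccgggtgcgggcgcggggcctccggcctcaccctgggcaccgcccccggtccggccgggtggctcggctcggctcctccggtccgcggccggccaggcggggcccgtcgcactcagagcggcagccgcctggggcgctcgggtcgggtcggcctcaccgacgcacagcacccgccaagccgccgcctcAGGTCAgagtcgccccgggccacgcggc
Nr1i2: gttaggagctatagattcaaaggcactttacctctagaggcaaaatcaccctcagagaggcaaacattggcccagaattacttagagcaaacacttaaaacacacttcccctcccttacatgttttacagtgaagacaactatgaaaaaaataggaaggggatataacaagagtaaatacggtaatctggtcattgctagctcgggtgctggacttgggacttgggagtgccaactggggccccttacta
Nr0b2: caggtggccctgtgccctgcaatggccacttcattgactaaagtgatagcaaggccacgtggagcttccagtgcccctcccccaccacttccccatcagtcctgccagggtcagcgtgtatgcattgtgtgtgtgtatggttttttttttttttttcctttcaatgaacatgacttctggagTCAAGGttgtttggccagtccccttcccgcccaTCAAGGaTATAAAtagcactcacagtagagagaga
The letters AGGTCA begin 28 bases before the Pparg start. TCAAGG begins 68 and 35 bases and TATAAA 28 bases before the Nr0b2 start, with no overlap between them. Neither the Ppara nor the Nr1i2 window holds any of the 3. Nr1h4 holds AGGTCA on the other strand, as tgacct, 214 bases before its start. Over all 15 starts listed for the 10 receptors, none holds the half-site repeated directly with 1 base between (AGGTCANAGGTCA, in 0.0335% of all windows) or 4 bases between (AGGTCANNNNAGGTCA, 0.0152%), or the inverted form with 1 base between (AGGTCANTGACCT, 0.00609%). A match is a run of letters and not a measured site.

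Ppara, whose product is the receptor for fatty acids that the null mice lack, was lower in null than in wild-type livers under every treatment. On water, Ppara was 15.34, 15.31, 15.14 and 15.04 in null mice, against 16.11, 16.78, 15.62 and 16.29 in wild type. With PFOA 1 mg/kg it was 15.57, 15.73, 15.95 and 15.87 in null mice, against 16.81, 16.79, 16.20 and 16.66 on the arrays labelled wild type, where 16.20 is the array that goes against its label. The groups do not overlap in either treatment, and the doubted array lies closest to the null arrays without falling among them. With PFOA 3 mg/kg Ppara was 15.06, 15.00, 16.02 and 15.59 in null mice, against 16.72, 16.52, 16.56 and 16.64 in wild type. With pirinixic acid it was 15.85, 15.58, 16.03 and 16.06 in null mice, against 16.74, 16.71, 16.78 and 16.07 in wild type, where the lowest wild-type array lies 0.01 above the highest null array. With methylcellulose it was 15.90, 15.86, 15.98 and 16.29 in null mice, against 16.37, 16.74 and 16.84 in wild type. Null arrays were thus below wild-type arrays in all 5 treatments, as at 22 of the 25295 probes (0.087%), while null arrays were above wild-type arrays in all 5 at 4 probes (0.0158%). Among the 7 receptors, Ppara alone had no overlap on water, at either PFOA dose (lower, then higher) or on pirinixic acid, where 7.55%, 3.78%, 8.61% and 10.4% of all probes had none, and with methylcellulose Ppara and Nr1h3 had none (13.6%). Without the doubted array, null arrays were below wild-type arrays in all 5 treatments at 70 probes (0.277%), Ppara the 1 receptor among them, and above them at 30 (0.119%). With PFOA 1 mg/kg alone, Ppara, Pparg and Nr1h4 then had no overlap, as did 13.6% of all probes.

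The Ppara difference was -0.82 ± 0.16 (SE) over both vehicles, a 1.76-fold lower signal in null mice (limma adjusted p = 0.00495). It was the only receptor called of 7 there, where 0.522% of all probes were called. Within single treatments the difference was -0.99 on water (adjusted p = 0.0488; 0.127% of probes called), -0.84 at the lower PFOA dose (0.0758; 0.407%) or -0.98 without the doubted array (0.0135; 1.83%), -1.20 at the higher (0.000517; 4.38%), -0.69 with pirinixic acid (0.0434; 7.05%) and -0.64 with methylcellulose (0.249; 0.186%). The intervals of these 5 differences overlap one another, the lowest running from -1.63 to -0.76 (PFOA 3 mg/kg) and the highest from -1.11 to -0.17 (methylcellulose). Over the mean of all 5 treatments, a comparison added after the single treatments had been seen, it was -0.87 ± 0.10 (adjusted p = 7.69e-08), and -0.90 without the doubted array. On water alone the call held without wild-type replicate 3 and was lost without any of the other 7 arrays, with adjusted p up to 0.377. Where this probe lies with respect to the deleted part of the gene is not known here, so its signal does not check the genotype labels.

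Pparg, the fat-storage receptor, and Nr1i2, which encodes PXR, also differed between genotypes once all 5 treatments were averaged, in opposite directions. On water, Pparg was 12.33, 12.36, 12.24 and 12.33 in null mice, against 12.37, 11.41, 11.10 and 11.08 in wild type. The null arrays lie within 0.12 of each other, and 3 of the 4 wild-type arrays lie below them, while the fourth, at 12.37, lies above. With pirinixic acid Pparg was 12.35, 12.07, 12.50 and 12.67 in null mice, against 12.23, 12.16, 10.33 and 11.74 in wild type, and the groups overlap. The null-minus-wild-type difference of Pparg was 0.83 on water, 0.33 and 0.74 at the lower and higher PFOA dose, 0.78 with pirinixic acid and 0.54 with methylcellulose, and no single one of these passed (adjusted p 0.113 to 0.909). Their mean was 0.64 ± 0.13, a 1.56-fold higher signal in null mice (adjusted p = 0.000983, and 0.000883 without the doubted array), where 11% of all probes were called. Over both vehicles it was 0.68 ± 0.22 (adjusted p = 0.243).

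Nr1i2 was 10.07, 10.33, 10.61 and 10.81 in null mice on water, against 10.63, 10.77, 11.31 and 11.14 in wild type on water. With methylcellulose it was 11.36, 10.93, 10.18 and 10.79 in null mice, against 11.19, 11.52 and 11.53 in wild type. The groups overlap in both vehicles, and the lowest arrays are null ones. The difference was -0.50 on water, -0.37 at each PFOA dose, -0.42 with pirinixic acid and -0.60 with methylcellulose, with adjusted p of 0.436 or above in each. The mean over the 5 treatments was -0.45 ± 0.13, a 1.37-fold lower signal in null mice (adjusted p = 0.0212, and 0.0156 without the doubted array), and over both vehicles it was -0.55 ± 0.21 (adjusted p = 0.462), with -0.11 within the smaller array set and -0.80 within the larger.

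Within the larger array set alone the means over the 5 treatments were 0.71 for Pparg (adjusted p = 0.0998) and -0.44 for Nr1i2 (0.293), and within the smaller set, which lacks wild type on pirinixic acid, they were 0.54 (0.398) and -0.39 (0.535). Ppara stayed called in both sets. Pparg is also expressed by adipocytes and macrophages. The adipocyte markers (3 of 6 listed, with Lep at 7.66, below the array median) averaged 10.34 to 10.54 on null and 10.26 to 10.54 on wild-type water arrays, and the Kupffer cell markers (5 of 7 listed) 12.83 to 12.99 on null and 12.51 to 12.84 on wild-type water arrays. The part of these cells in the Pparg difference was not tested.

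**Figure D2:**
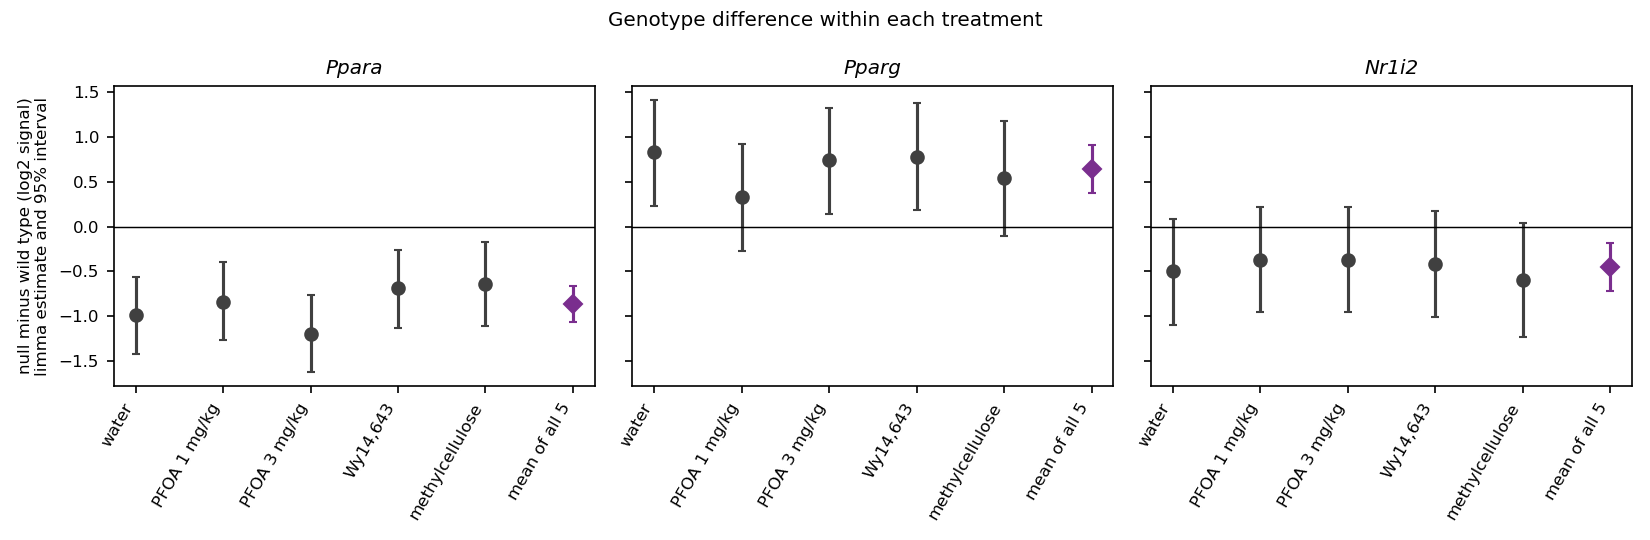
Null minus wild-type difference in log2 signal (y axis) of Ppara, Pparg and Nr1i2 within each treatment (x axis; circles) and for the mean of all 5 (diamonds), with limma 95% intervals. All 5 circles are below 0 for Ppara and Nr1i2 and above 0 for Pparg, and the intervals of single treatments reach 0 for all 5 Nr1i2 circles.

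The other receptors were not called between genotypes. The mean difference over 5 treatments was 0.09 for Nr1i3 (95% interval -0.07 to 0.26), 0.06 for Nr1h3 (-0.05 to 0.17), -0.12 for Nr1h4 (-0.36 to 0.12) and 0.24 for Nr0b2 (-0.31 to 0.79). Nr1h3 and Nr1i3 intervals thus leave room for no mean difference above 0.26, while that of Nr0b2 leaves room for 0.79. Ppard had -0.27 ± 0.20 (adjusted p = 0.519). On water Ppard was 5.36, 7.59 and 6.52 in null mice, against 8.39, 7.88, 7.03 and 7.55 in wild type, a difference of -1.22 ± 0.45 (adjusted p = 0.49), and over both vehicles it was -0.74 ± 0.32 (adjusted p = 0.65). That low null water mean rests on the array at 5.36, without which the water difference was -0.65.

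No receptor was called in any response to treatment. Among 7 receptors and 6 responses, 42 differences in all, limma made 0 calls and 3 had an unadjusted p under 0.05. In null mice 3.97%, 8.35% and 2.73% of all probes had one for PFOA 1 mg/kg, PFOA 3 mg/kg and pirinixic acid. In wild type 11%, 18.6% and 20.9% had one. The share of all probes called was 0.0119% for PFOA 1 mg/kg, 0.3% for PFOA 3 mg/kg and 0% for pirinixic acid in null mice, and 0.273%, 5.82% and 6.1% for the same treatments in wild type. With 7 receptors, 0 calls is therefore close to that background. Treated and vehicle arrays did not overlap for 1 receptor with PFOA 1 mg/kg (Ppara; 4.39% of all probes), 0 at 3 mg/kg (5.93%) and 0 on pirinixic acid (1.91%) in null mice, and for 0 (5.24%), 0 (10.2%) and 1 (Nr1h3; 17.4%) in wild type. The median difference of the 7 receptors was 0.25 for PFOA 3 mg/kg and -0.17 for pirinixic acid in wild type, beside medians over all probes of -0.02 and -0.03.

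Of the 3 differences with a low unadjusted p, which the shares over all probes do not set apart, 2 were in the fatty acid receptors. Pparg with PFOA 1 mg/kg was 12.11, 11.96, 12.37 and 12.20 on the arrays labelled wild type, against 12.37, 11.41, 11.10 and 11.08 on water. All but 1 of the water arrays lie below the treated ones, and the difference was 0.67 ± 0.29 (adjusted p = 0.404), or 0.60 (0.544) without the doubted array, itself the highest of the treated ones. Ppara in null mice on PFOA 1 mg/kg, at 15.57 to 15.95, did not overlap null mice on water, at 15.04 to 15.34 and differed by 0.57 ± 0.21 (adjusted p = 1). Ppara in null mice was also higher with methylcellulose than with water, by 0.80 ± 0.21 (adjusted p = 0.31), with no overlap between the vehicles, as at 7.85% of all probes. Ppard, in the fit that allows missing values, differed by 1.50 ± 0.48 with PFOA 1 mg/kg (adjusted p = 1), by 1.13 ± 0.45 with PFOA 3 mg/kg (0.569) and by 0.99 ± 0.45 between methylcellulose and water (0.488), all in null mice. All 3 of these Ppard values are set against the same null water arrays, and without the array at 5.36 they were 0.93, 0.57 and 0.43.

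The xenobiotic receptors had no response with an unadjusted p under 0.05. Nr1i3 with PFOA 3 mg/kg was 16.28, 16.33, 16.43 and 16.61 in null mice, against 16.56, 16.67, 16.74 and 16.59 on water. In wild type Nr1i3 was 16.87, 16.55, 16.47 and 16.44 with PFOA 3 mg/kg, against 16.82, 16.25, 15.95 and 16.31 on water. Treated and water arrays overlap in both genotypes, with 95% intervals for the difference of -0.59 to 0.14 in null mice and -0.12 to 0.61 in wild type. Over all 6 responses Nr1i3 differed by -0.23 to 0.36, and Nr1i2 by -0.37 to 0.54, with the bounds of their intervals reaching -0.62 to 0.72 and -1.01 to 1.13.

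Nr1h3, the oxysterol receptor, was the steadiest of the 8. Its 39 arrays lay between 15.99 and 16.77, and its SD within groups was 0.129, against a median of 0.22 for the 2000 probes nearest in signal. The 6 responses of Nr1h3 ran from -0.21 to 0.19, and no bound of their intervals passed -0.45 or 0.43, a difference of at most 1.36-fold. With pirinixic acid Nr1h3 was 16.67, 16.61, 16.77 and 16.73 in null mice, against 16.46, 16.45, 16.47 and 16.65 with methylcellulose. In wild type Nr1h3 was 16.32, 16.65, 16.64 and 16.54 with pirinixic acid, against 16.72, 16.74 and 16.66 with methylcellulose. Null treated arrays lie above 3 of their 4 controls, and wild-type treated arrays all lie below theirs. The response of null minus that of wild type was 0.36 ± 0.17 (adjusted p = 0.313; 1.24% of probes called).

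Nr1h4, the bile acid receptor, was 16.24, 16.43, 15.72 and 15.79 in wild type on pirinixic acid, against 16.36, 17.03 and 16.54 on methylcellulose. The groups overlap by 1 array, and the difference was -0.60 ± 0.28 (adjusted p = 0.205), or -0.41 without methylcellulose replicate 2, the array at 17.03. The other 5 responses of Nr1h4 lay between -0.20 and 0.12. Nr1h4 had an SD within groups of 0.361, against 0.221 for probes of like signal.

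Nr0b2, which encodes the repressor SHP, varied more between arrays of the same group than any other measured receptor. Its SD within groups was 0.867, above 98.7% of the 2000 probes nearest in signal, whose median was 0.225. In null mice on PFOA 1 mg/kg its arrays read 14.92, 14.95, 16.12 and 12.44. In wild type they read 14.93, 14.32, 15.37 and 12.77 with PFOA 3 mg/kg, against 13.70, 15.23, 15.97 and 15.57 on water. The arrays at 12.44 and 12.77 lie below every water array of either genotype, and the other printed arrays of both treated groups lie between 14.32 and 16.12. The 6 responses of Nr0b2 ran from -0.77 to 0.69 with intervals, of which the widest ran from -0.61 to 2, for pirinixic acid in wild type, and so held responses of up to 4-fold.

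**Figure D3:**
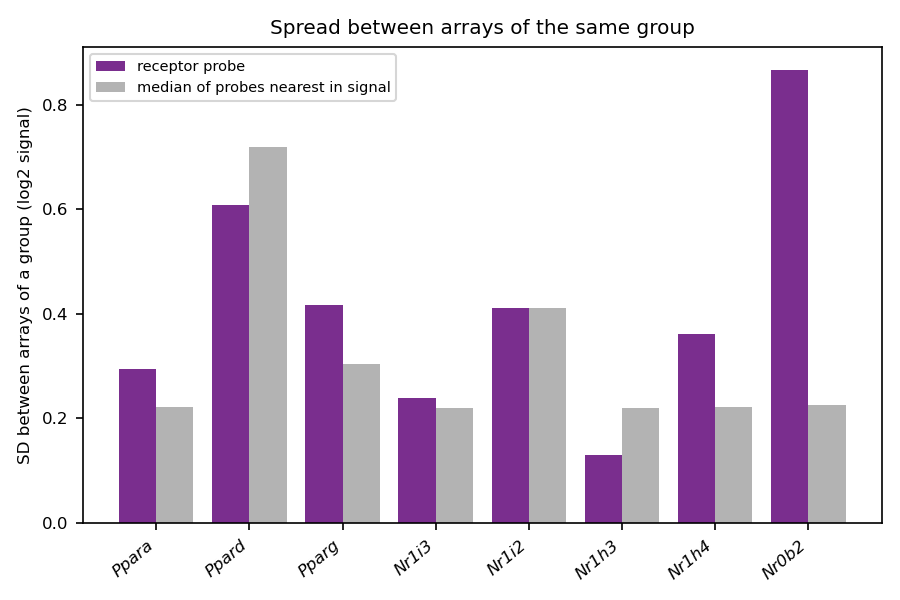
SD between arrays of the same group (y axis, log2 signal) for each receptor probe (purple) and the median SD of the 2000 probes nearest in mean signal (grey). Nr0b2 stands at 0.867 beside 0.225, and Nr1h3 at 0.129 beside 0.22.

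**Figure D4:**
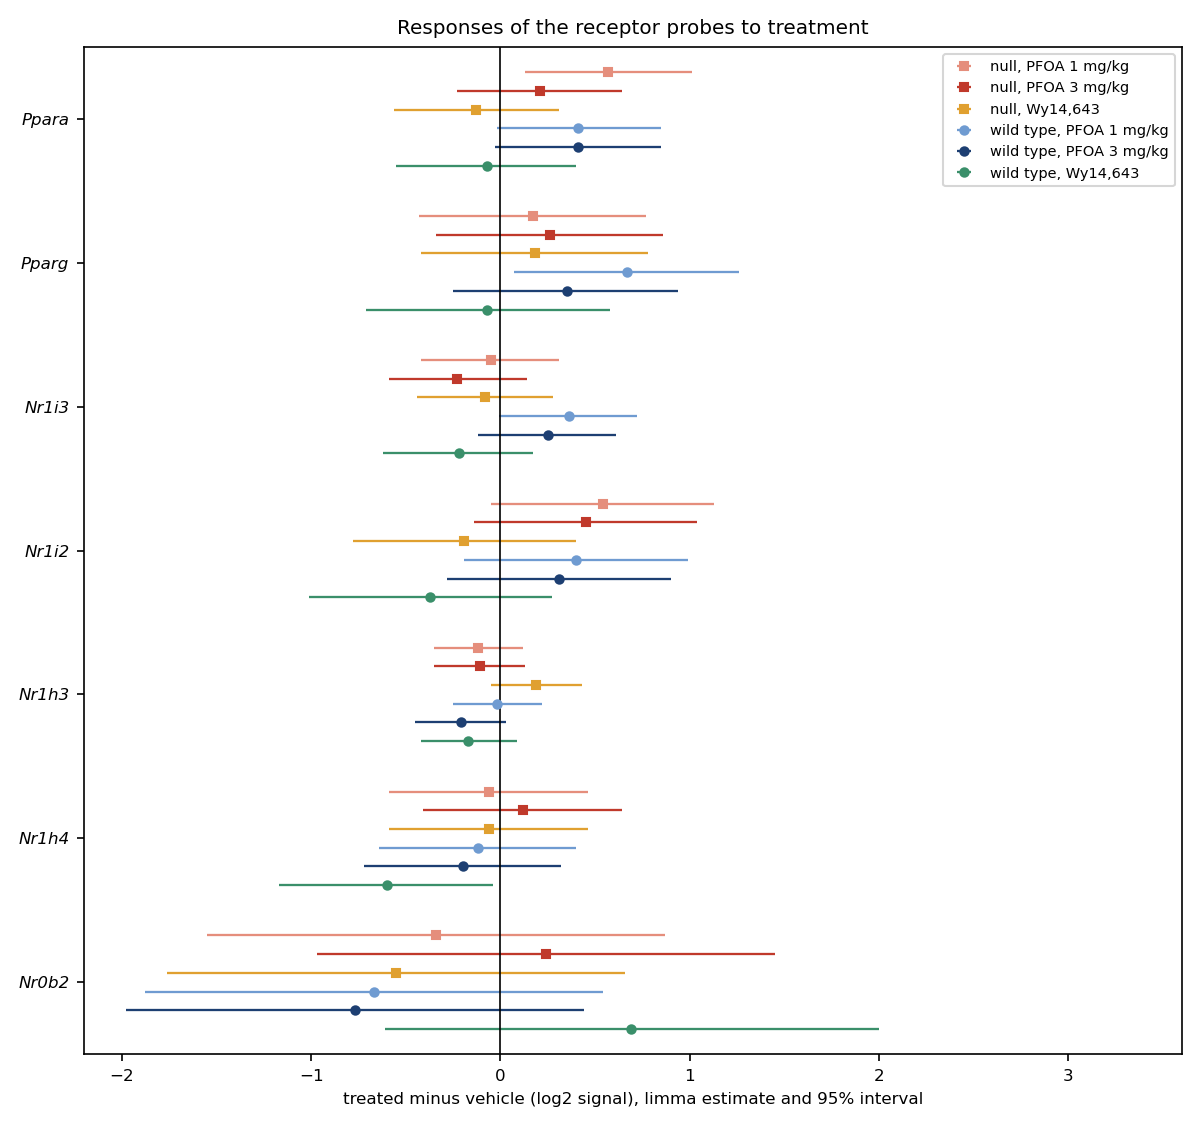
Treated minus vehicle differences in log2 signal (x axis) with limma 95% intervals for 7 receptors (rows), in null (squares) and wild-type mice (circles). The Nr1h3 intervals are the narrowest and those of Nr0b2 the widest, and none of the 42 differences was called.

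The remaining comparisons also gave 0 calls among the 7 receptors with limma. Between PFOA 3 and 1 mg/kg no receptor had an unadjusted p under 0.05 in null mice or in wild type. Of all probes, 4.57% in null mice and 7.5% in wild type had one (0.00791% and 0.0277% were called). The receptor differences ran from -0.36 to 0.58 in null mice and from -0.32 to -0.01 in wild type. The arrays of the 2 doses overlapped for all 7, while 2.95% of all probes in null mice and 3.6% in wild type had no overlap. Between the responses to PFOA 3 mg/kg and to pirinixic acid, 0 receptors had an unadjusted p under 0.05 in either genotype. The doses and vehicles of the 2 compounds are unmatched. Of all probes, 5.16% in null mice and 13.4% in wild type had one in that comparison (0.0474% and 0.0119% were called). The responses to PFOA differed between genotypes for 0 receptors at 1 mg/kg (0% of probes called, 5.04% with an unadjusted p under 0.05) and for 0 at 3 mg/kg (0.415%). Methylcellulose against water gave 0 calls in null mice (0% of probes, 11.6% unadjusted; 1 receptor, Ppara, unadjusted) and 0 in wild type (0%, 8.66% unadjusted; 0 receptors). Between these vehicles in wild type Nr1h3 alone had no overlap, at 16.66 to 16.74 with methylcellulose and 16.46 to 16.59 on water (7.95% of all probes had none).

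Genes known as targets of the receptors moved where the receptor probes were not called. Because the lists were chosen with earlier results of these data known, their counts beside the shares of all probes are descriptions. They are no test of an excess over those shares. Of 13 measured PPARα targets, 10 rose with PFOA 3 mg/kg in wild type (3.37% of all probes rose there) and 7 rose with pirinixic acid (2.8%), with medians of 2.75 and 1.47. In null mice 1 of the 13 rose with PFOA 3 mg/kg (0.261%), with a list median of 0.32. An unadjusted p under 0.05 was held by 4 of the 13 there, and by 8.35% of all probes. With pirinixic acid 0 rose in null mice, where limma called no probe at all. There 2.73% of probes, 0 of the 13 among them, had an unadjusted p under 0.05. Acot1, an acyl-CoA thioesterase, differed by 1.56 ± 0.51 with PFOA 3 mg/kg in null mice (adjusted p = 0.302) and rose by 6.19 ± 0.51 in wild type (5.1e-09). Cd36, a fatty acid transporter, differed by 0.09 ± 0.39 in null mice (0.973) and rose by 4.36 ± 0.39 in wild type (1.1e-08). The test of the genotype difference in that response called 6 of the 13 (0.415% of all probes), all with a smaller response in null mice. They include Cd36 (-4.27 ± 0.55, limma adjusted p = 9e-05) and Acot1 (-4.63 ± 0.72, 0.000869). The 1 gene that rose in null mice was Creb3l3, a liver transcription factor, by 1.06 ± 0.19 (adjusted p = 0.00371), beside 0.70 ± 0.19 in wild type (0.0209), and its genotype difference was not called (0.35 ± 0.27, 0.652). The other 3 with a low unadjusted p in null mice were Acot1, Angptl4 (2.38 ± 0.66, adjusted p = 0.159), an inhibitor of lipoprotein lipase, and Cyp4a14 (3.61 ± 1.65, 0.559), a fatty acid hydroxylase, of which the last 2 were named after their values were seen.

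Of 5 lipid storage genes known to be induced by PPARγ, 3 rose in wild type with each compound. A gene can be a target of more than 1 receptor, and which receptor acted on these genes was not tested. By limma, 0 rose in null mice (0.261% of all probes) and 3 in wild type (3.37%) at the higher PFOA dose, and 0 in null mice (0%) and 3 in wild type (2.8%) on pirinixic acid, with 0 of the 5 at an unadjusted p under 0.05 in null mice under either. Mogat1, a monoacylglycerol acyltransferase, differed by -0.04 ± 0.78 with PFOA 3 mg/kg in null mice (adjusted p = 0.994) and rose by 5.96 ± 0.78 in wild type (8.14e-06), and the genotype difference was called (adjusted p = 0.00725). Cidec, a lipid-droplet protein, rose by 3.29 ± 0.51 in wild type (8e-05; genotype difference -3.64 ± 0.72, 0.0134), and Fabp4, a fatty acid carrier, rose by 4.39 ± 0.32 with pirinixic acid in wild type (8.63e-11). The lipid droplet genes Plin4 and Plin1 were not called in wild type, at -0.18 and -0.79 with PFOA 3 mg/kg and 1.27 and 0.46 with pirinixic acid. Fabp4 and Plin1 are also on the adipocyte list, which averaged 11.44 to 12.28 with pirinixic acid and 10.45 to 10.69 with methylcellulose in wild type, with Lep below the array median over all arrays. Of the 3 genes in that average Fabp4 alone was called, while Plin1 differed by 0.46 ± 0.42 (adjusted p = 0.588) and Lep by -0.76 ± 0.61 (0.515). The Pparg probe itself was not called in any of these responses.

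Detoxifying genes that CAR is known to induce were among those that rose with PFOA 3 mg/kg in each genotype. Of 7 measured, 3 rose in null mice (0.261% of all probes) with a list median of 2.01, and 4 rose in wild type (3.37%) with a median of 2.13. Cyp2c55, a cytochrome P450, rose by 6.79 ± 0.45 in null mice (adjusted p = 1.25e-11) and by 4.44 ± 0.45 in wild type (9.01e-08). Cyp2b10, the usual marker of CAR activity in mouse liver, rose by 4.60 ± 0.58 in null mice (1.96e-05) and by 2.13 ± 0.58 in wild type (0.0234). Cyp2b13 rose by 2.76 ± 0.55 in null mice (0.0112) and differed by 0.86 ± 0.55 in wild type (0.43). Gadd45b, a stress-induced CAR partner, and Alas1, which begins heme synthesis, rose in wild type, by 3.80 ± 0.66 and 2.61 ± 0.52, and differed by 1.37 ± 0.66 (adjusted p = 0.595) and 0.93 ± 0.52 (0.664) in null mice. None of the 7 had a called genotype difference in response (0.415% of all probes called). In that test 5 had an unadjusted p under 0.05, as did 10.7% of all probes. With the larger response in null mice, the difference was 2.34 ± 0.63 for Cyp2c55 (limma adjusted p = 0.103), 2.46 ± 0.82 for Cyp2b10 (0.224) and 1.91 ± 0.77 for Cyp2b13 (0.348). With the larger response in wild type, it was -2.43 ± 0.94 for Gadd45b (0.321) and -1.69 ± 0.73 for Alas1 (0.396). At 1 mg/kg in null mice Cyp2c55 alone rose, by 4.83 ± 0.45 (1.05e-07), 1 of only 3 probes called there. By limma, pirinixic acid moved 0 of the 7 in null mice (0% of all probes called) and 0 in wild type (6.1%). At an unadjusted p under 0.05 were 1 in null mice (2.73% of all probes) and 2 in wild type (20.9%). Cyp2c55 differed by 0.56 ± 0.45 in null mice and 0.66 ± 0.48 in wild type.

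**Figure D5:**
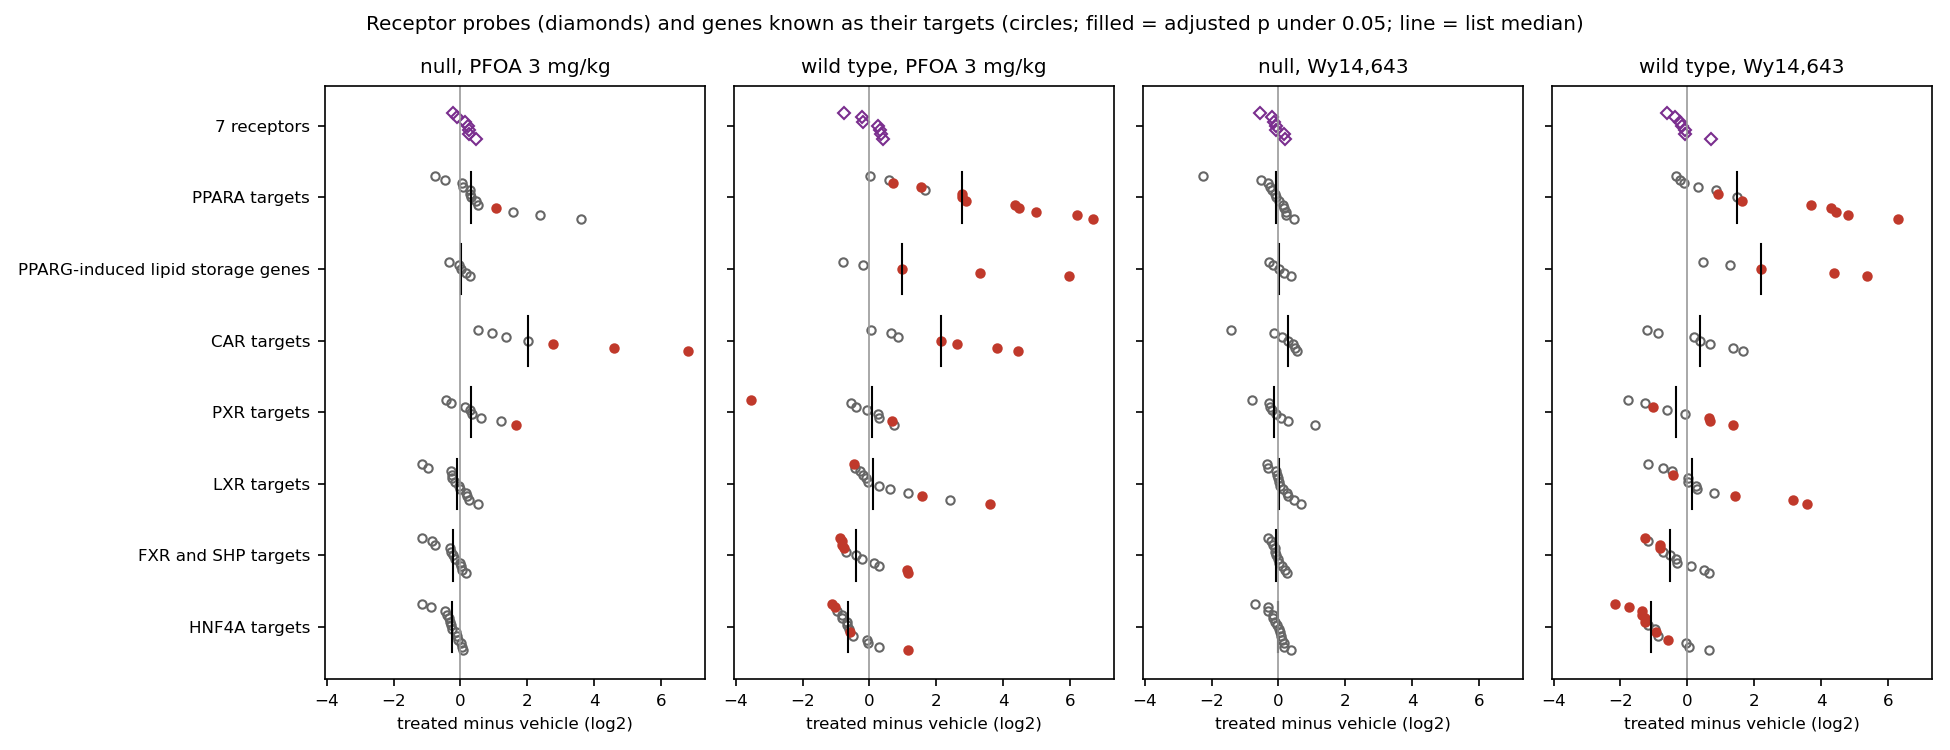
Treated minus vehicle differences (x axis, log2 signal) of the 7 receptors (diamonds) and of genes known as receptor targets (circles, filled where adjusted p is under 0.05; black line, list median), by list (rows) and by genotype and treatment (panels). Receptor diamonds stay between -0.77 and 0.69, while PPARα targets reach 6.69 in wild type and CAR targets 6.79 in null mice with PFOA 3 mg/kg.

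Genes known as targets of PXR and LXR moved in both directions. Of 8 PXR targets, Ces2a, a carboxylesterase, rose by 1.67 ± 0.19 with PFOA 3 mg/kg in null mice (adjusted p = 3.24e-06) and differed by -0.08 ± 0.19 in wild type (0.884), and the genotype difference was called (1.74 ± 0.27, 0.000816). In wild type Slco1a4, an organic anion transporter, fell by 3.54 (SE 0.61, adjusted p = 0.000291) and Aldh1a1, a retinaldehyde dehydrogenase, rose by 0.66 ± 0.15 (0.00636). With pirinixic acid in wild type, where 6.1% of all probes were called in either direction, 3 of the 8 rose, led by the efflux pump gene Abcb1a (1.35 ± 0.32, 0.00896). Ces2a fell there by 1.02 (SE 0.20, 0.00221). Of 12 LXR targets, limma called 0 with PFOA 3 mg/kg in null mice (0.3% of all probes called, and 0 of the 12 at an unadjusted p under 0.05). In wild type 2 rose and 1 fell with it (5.82% of all probes called in either direction). Pltp, a phospholipid transfer protein, rose by 3.61 ± 0.35 with PFOA 3 mg/kg (4.19e-08; genotype difference -3.88 ± 0.49, 9e-05) and by 3.57 ± 0.37 with pirinixic acid in wild type (4.44e-07). Lpcat3 rose by 1.56 ± 0.32 with PFOA 3 mg/kg in wild type (0.00211). With pirinixic acid in wild type Scd1 rose by 3.15 ± 0.84 (0.0208) and Fasn by 1.42 ± 0.42 (0.0358). Mlxipl, the carbohydrate response factor, was the only LXR target called as falling in wild type under these treatments. It fell by 0.45 (SE 0.12, 0.0285) with PFOA 3 mg/kg and by 0.43 (SE 0.13, 0.0491) with pirinixic acid.

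Of 11 genes regulated through FXR and SHP, 2 rose (3.37% of all probes) and 4 fell (2.46%) with PFOA 3 mg/kg in wild type. In null mice limma called 0 (0.3% of all probes), and 2 of the 11 had an unadjusted p under 0.05 (8.35%). None had a called genotype difference in that response (0.415% of all probes called), and 6 had an unadjusted p under 0.05 (10.7%). The genes named next are given for wild type. Abcb4, the phospholipid pump of the bile canaliculus, rose by 1.11 ± 0.25 (adjusted p = 0.00564). Slc10a1, the bile acid uptake carrier, fell by 0.82 (SE 0.22, 0.019), Kng1, kininogen, by 0.88 (SE 0.16, 0.000548) and Fetub, fetuin B, by 0.81 (SE 0.22, 0.0239). With pirinixic acid in wild type 0 rose (2.8% of all probes) and 3 fell (3.3%), among them Fetub (-1.27 ± 0.24, 0.00133).

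Genes known as targets of HNF4α, the factor that maintains hepatocyte genes and that is not analysed here, were counted in the same way. With pirinixic acid in wild type 8 of 14 fell (3.3% of all probes fell) with a list median of -1.09, against 0 of 14 by limma in null mice (0 at an unadjusted p under 0.05) with a median of -0.01, and 5 of the 14 had a called genotype difference in response (1.24% of all probes). Apoa4 fell by 2.15 (SE 0.30, adjusted p = 3.54e-05), Apom, an HDL apolipoprotein, by 1.35 (SE 0.18, 1.28e-05), Otc, a urea cycle enzyme, by 1.27 (SE 0.27, 0.00358) and Trf, transferrin, by 0.93 (SE 0.19, 0.0021). With PFOA 3 mg/kg in wild type 3 fell (2.46% of all probes) and 1 rose (3.37%), with a median of -0.64. There Apom fell by 1.04 (SE 0.17, adjusted p = 0.000106), Proc, protein C, by 0.59 (SE 0.12, 0.00239) and F7, coagulation factor VII, by 1.11 (SE 0.34, 0.0474). Cyp8b1, a bile acid 12-hydroxylase, rose by 1.15 ± 0.32 (0.0279). In null mice limma called 0 with PFOA 3 mg/kg (0.3% of all probes), with a median of -0.27 and 1 at an unadjusted p under 0.05 (8.35%). None of the 14 had a called genotype difference in that response (0.415% of all probes called), and 3 had an unadjusted p under 0.05 (10.7%). The hepatocyte list, which shares Ttr and Trf with these 14, averaged 19.97 to 20.50 with pirinixic acid and 20.43 to 20.76 with methylcellulose in wild type. With pirinixic acid in wild type 2 of its 6 genes fell. Its part in the pirinixic acid result was not tested, and all 4 pirinixic acid arrays of wild type are in the larger array set.

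Between genotypes within each vehicle taken singly, the only gene on the 7 target lists that was called was Sult1e1, estrogen sulfotransferase, on the CAR list. Sult1e1 was higher in null mice by 5.81 ± 0.97 on water (limma adjusted p = 0.00856) and by 4.98 ± 1.04 on methylcellulose (0.0319). The PPARα target Creb3l3 differed by -0.75 ± 0.19 on water (0.145) and by -0.84 ± 0.20 on methylcellulose (0.07). Both genes were singled out after their values were seen. For the mean of both vehicles, where 0.522% of all probes were called, the lists are not given here. Of 19 other nuclear receptors measured, limma called 0 in each of the 6 responses (0% to 6.1% of all probes). An unadjusted p under 0.05 was held by 0 to 4 of the 19, and by 2.73% to 20.9% of all probes. Of 15 coactivators and corepressors, limma called 0 in null mice with PFOA 3 mg/kg, and 0 on pirinixic acid in either genotype. An unadjusted p under 0.05 was held by 0 of the 15 in null mice with PFOA 3 mg/kg (8.35% of all probes). On pirinixic acid it was held by 0 in null mice (2.73%) and 3 in wild type (20.9%). With PFOA 3 mg/kg in wild type 3 of the 15 changed (5.82% of all probes called). The coactivator gene Ppargc1a, which serves PPARα and HNF4α in fasting, fell by 1.11 (SE 0.32, adjusted p = 0.0341), Tbl1x, a subunit of corepressor complexes, fell by 0.58 (SE 0.15, 0.0205), and its relative Tbl1xr1 rose by 0.80 ± 0.21 (0.0204). In that comparison the stellate cell list (4 of 6 listed) averaged 9.74 to 10.94 with PFOA 3 mg/kg and 10.88 to 11.57 on water, and the Kupffer cell list 12.09 to 12.40 and 12.51 to 12.84; their part in the changes was not tested.

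Across the 39 arrays, which share their groups and array sets, the genes most like each receptor among 11584 were the following, by Pearson's r of log2 signal as a description. Ppara was most like Coro1b (0.854), a coronin, then Adcy6 (0.815) and Pigx (0.806), and Pparg most like Snhg11 (0.796), Cyp2a4 (0.782), a steroid hydroxylase, and Smpd3 (0.746). Nr1h4 reached the highest value of all, with Fam160b1 (0.869), followed by Ptp4a1 (0.844) and Slc16a12 (0.81). Nr1h3 was most like Polr2m (0.723), Sf3b1 (0.695) and B4gat1 (0.678). The highest r of the xenobiotic receptors and of Nr0b2 was lower. Negative values were not followed up, and the lowest r of Nr0b2, -0.741, was larger in size than its highest. Nr1i2 was most like Angptl4 (0.675), and Nr1i3 most like Fkbp5 (0.625), a chaperone of steroid receptors. Nr0b2 reached 0.626 with Mal2, 0.625 with Tuba1c and 0.623 with Psen2.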

How the data were processed

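Total liver RNA was hybridised to Applied Biosystems Mouse Genome Survey arrays, with 1 labelled sample per array, per the labels' protocols. The authors deposited log2 signals, which run from 4.85 to 21.5 and have the same quantiles on every array, and the log base was read as 2 from that range; the sources used here do not give the array software, background correction or normalisation, and no further normalisation was applied. All 10 groups were fitted together with limma 3.58.1 in R 4.3.3 (29 residual degrees of freedom, eBayes), and 18 differences were tested over 25295 probes, two-sided. The labels do not say that replicates with the same number share anything, so no block was used; p-values measure the spread between animals of a group. Comparisons within a genotype share their vehicle arrays. Precision is limited by having 3 or 4 arrays a group. The code was tested on simulated data for PFOA 3 mg/kg against water in wild type. There limma called 37 of 100 probes moved by 1 log2 unit and 71 of 100 moved by 2, with 5 false calls. The moved probes were drawn at random from all 25295, dim and variable ones included, while receptor SDs within groups ran from 0.129 to 0.867. How often a receptor difference of a given size would be missed was therefore not measured. Alternatives were array quality weights, filters on missing and dim probes, blocks and covariates, array sets alone and each array left out. Receptors are always given, a difference of a receptor is given with its error and adjusted p where its unadjusted p was under 0.05, and for each list up to 4 called genes with the smallest adjusted p are named in wild type on PFOA 3 mg/kg, wild type on pirinixic acid and null mice on PFOA 3 mg/kg in turn, with exceptions said in the text. Members and lists were chosen with earlier results of these data known.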

Additional observations from a re-analysis of the deposited data

Results flagged for a closer look

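Of 70 receptor groups of 4 arrays, 6 held an array that stands apart, with a gap to the nearest other array, relative to the range of the group, above Dixon's 95% critical value for 4; chance flags about 1 in 20 groups. Ppara was at 16.07 on replicate 4 of wild type on pirinixic acid, while the other arrays lay between 16.71 and 16.78. Ppard was at 7.05 on replicate 3 of the same group, with the others between 7.64 and 7.69. Nr1i3 was at 16.44 on replicate 4 of null mice on PFOA 1 mg/kg, with the others at 16.63 and 16.64. Nr1h3 and Nr1h4 both stood apart on replicate 4 of null mice on methylcellulose, at 16.65 and 17.14, with the others at 16.45 to 16.47 and 16.13 to 16.16. Nr1h4 was at 16.51 on replicate 1 of null mice on water, with the others at 15.90 to 15.92.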

How the results depend on the processing

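Of the planned comparisons, all but those of genotype on water and over both vehicles had 0 receptors called, under each alternative run, the doubted array left out included, and none of the receptor differences recomputed under them reversed. The 1 call on water (Ppara) became 0 with all probes kept, with the replicate number as a block (-0.99, adjusted p = 0.0749), with a block for array set (-0.98, 0.0655), with the mean of 578 dim probes per array as a covariate (-0.96, 0.217), with only the 2 groups fitted (-0.99, 0.255), and within the smaller (-1.03, 0.281) or the larger array set (-0.89, 0.747); it became 2 with array quality weights, where Pparg joined (0.97, 0.0263). Leaving out 1 array gave 0 to 1 on water, 1 in each case over both vehicles, and 3 in each case over all 5 treatments. Over both vehicles the count was 2 with array quality weights (Pparg 0.76, 0.0179) and 0 within the smaller (Ppara -0.75, 0.346) or the larger set (-0.82, 0.986). Over all 5 treatments it was 1 within the larger set and 1 within the smaller, Ppara in both. The within-set and all-treatment comparisons, and the genotype difference and overlap with PFOA 1 mg/kg without the doubted array, were chosen after seeing the data. Replicate numbers are shared only as numbers (deviations from group means had a median r of 0.101 within a number and -0.042 between numbers, and 10 of 23 pairs of treated and vehicle arrays with the same number passed 0.1), and the block changed no other call of a receptor. Another probe per receptor could not be tried because each has 1, and Ppard was not recomputed under the dim-probe filter, array weights, the groups compared alone or the array sets. Precision is limited by the number of arrays and, for Ppard, by a signal below the array median; the cause of the lost calls was not tested, except that within-set fits and left-out arrays use fewer arrays.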

Other observations

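Nr0b2, the receptor with the largest spread within groups, was averaged over the replicate numbers of the labels. Its mean was 14.55 over the arrays numbered 1, 14.76 over those numbered 2, 15.21 over those numbered 3 and 14.16 over those numbered 4. Single arrays ran from 13.53 to 16.12 among those numbered 3 and from 12.44 to 15.57 among those numbered 4, so the numbers overlap widely. These values carry no test.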
